A study of Mus musculus with 3 samples.

Results

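AP-1 and immediate early transcription factors were read in mouse dendritic cells 24 h after PTX, LPS or PBS, on 1 array per group. The members were 10 genes, namely the Fos family genes Fos, Fosb and Fosl2, the Jun family genes Jun, Junb and Jund, the related factor Atf3, the zinc finger factor Egr1, and the orphan nuclear receptors Nr4a1 and Nr4a2. They were chosen by name, as all probe sets to which the platform annotation gives a member's symbol and no other. This gave 18 of the 34945 probe sets with 1 gene symbol, and 10 of 18193 genes. Of the members, 6 had a single probe set (Fos, Fosb, Junb, Atf3, Egr1 and Nr4a1) and 4 had several.

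AP-1 is a family of dimers. Fos proteins pair with Jun proteins through a leucine zipper, Jun proteins also pair among themselves, and Atf3 can join Jun partners and often acts as a repressor. Immediate early genes are those whose transcription starts within minutes of a stimulus without new protein synthesis, through MAP kinases acting on serum response factor, its ternary complex partners and CREB, and most of their messages decay quickly. In dendritic cells and macrophages they are known for their early peak after Toll-like receptor ligands, and Atf3 is known to restrain the genes of inflammatory cytokines. A reading at 24 h therefore lies well after that early period.

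The cells were grown from bone marrow of female mice aged 6 weeks in medium with GM-CSF at 20 ng/mL, and nonadherent cells were taken on day 7, per the labels. One culture received PTX at 100 ng/mL, 1 received LPS (bacterial lipopolysaccharide, a Toll-like receptor 4 ligand) at 1 µg/mL, and 1 received PBS. The labels do not spell out PTX. They give the strain as C57BL/7 for the PTX sample and as C57BL/6 for the LPS and PBS samples, and they do not say whether the 3 cultures came from the same mouse. With 1 array per group no difference has a replicate check, no test was possible, and batch or animal and group cannot be told apart. The title of the series names PTX and LPS as the stimuli to be compared.

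The values are probe set intensities on a linear scale. Their median was 87.0 after PTX, 65.4 after LPS and 85.8 after PBS. The LPS array stood apart in another respect. For 18S ribosomal RNA its ratio of 3′ to 5′ probe set was 1.95, against 0.20 on the PTX array and 0.26 on the PBS array, whereas the same ratio of beta-actin lay between 1.33 and 1.40 on all 3 arrays. The 18 bacterial hybridization controls lay 0.20 higher (median log2 difference) in LPS against PBS and 0.01 higher in PTX against PBS. Differences below are of log2(intensity + 16), which understates those of dim probe sets. A gene was represented by its brightest probe set and counted as measured where that reached, on at least 1 array, an intensity of 78.9, the median of all noncontrol values. All 10 members and 12299 genes in all were measured.

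**Figure D1:**
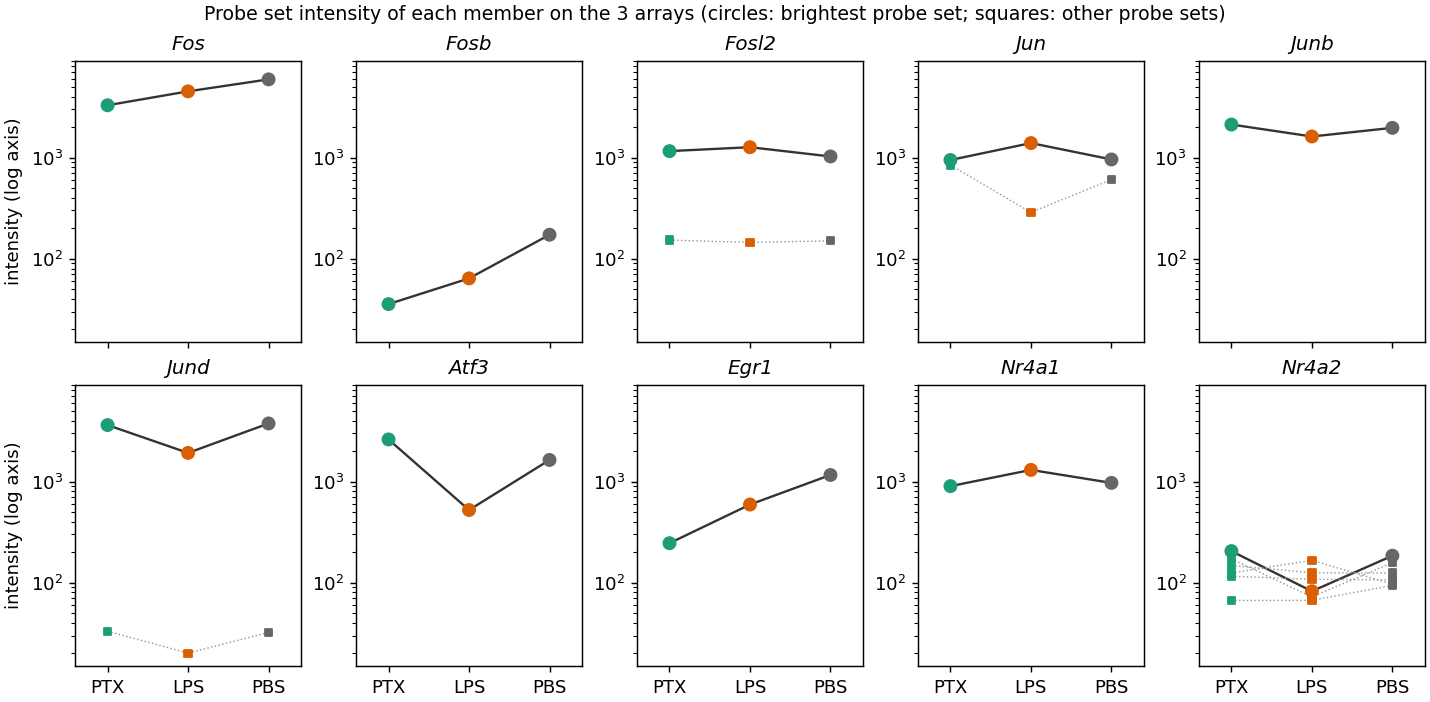
Probe set intensity of each member (vertical log axis) on the PTX, LPS and PBS arrays. Circles joined by solid lines are the brightest probe set of each gene, and squares joined by dotted lines are its other probe sets. Fos, Fosb and Egr1 are lowest on the PTX array and highest on the PBS array, whereas Junb, Jund, Atf3 and Nr4a2 are lowest on the LPS array.

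By their brightest probe sets the members did not share 1 order over the arrays. Fos, Fosb, Jund and Egr1 read highest on the PBS array (4 members), Fosl2, Jun and Nr4a1 on the LPS array (3), and Junb, Atf3 and Nr4a2 on the PTX array (3). The lowest reading was on the PTX array for 5 members (Fos, Fosb, Jun, Egr1 and Nr4a1), on the LPS array for 4 (Junb, Jund, Atf3 and Nr4a2) and on the PBS array for Fosl2. No spread within a group is known, so neighbours in an order that lie close together, such as the PTX and PBS readings of Jun, were not distinguished.

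PTX against PBS shows what differed after PTX. Egr1 and Fosb were at least 2-fold lower in PTX-treated cells, Fos was lower by less than 2-fold, and Atf3 was higher by less than 2-fold. The other 6 members differed by at most 0.17 on the log2 scale. Of the 10 members 2 were at least 2-fold lower, where 2.37% of all measured genes were, and none was at least 2-fold higher, where 3.04% of all measured genes were. Of the 2, Fosb reached the measured level on the PBS array only. With that level at the 75th percentile Fosb was not measured and the count was 1. The members' median difference was -0.04, and that of all measured genes was 0.01.

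Egr1, which encodes a zinc finger activator induced through serum response factor, had an intensity of 245 after PTX, 592 after LPS and 1160.1 after PBS. The ratio of the intensities was 0.21 in PTX over PBS, and on the log2(intensity + 16) scale the difference was -2.17, the lowest of the members in any comparison. Of all measured genes 0.97% differed at least as much in either direction between these 2 arrays, and of the 1000 genes closest to Egr1 in mean level 1.4% did. These shares place Egr1 among the genes and are not a test. Over the 10 alternative settings the difference ranged from -2.35 to -1.98. Egr1 has a single probe set, so settings that change only the filter or the choice of probe sets could not move it.

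Fosb encodes another Fos family partner of Jun proteins. It read 35.6 after PTX, 63.9 after LPS and 173 after PBS. Only the PBS reading lay above the level for a measured gene, so the size of the difference depends on the pseudocount. In PTX against PBS it was -1.87 with a pseudocount of 16, -2.25 with a pseudocount of 1 and -1.25 with a pseudocount of 64. Of all measured genes 1.50% differed at least as much.

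Fos, the founding member of the family, was bright on every array. It read 3291 after PTX, 4518 after LPS and 5934 after PBS, in the same order as Egr1 and Fosb. Its difference in PTX against PBS was -0.85, and 7.33% of all measured genes differed at least as much. Quantile normalization moved it past 2-fold, to -1.02.

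The promoters of Fos and Fosb, which were both lower on the PTX array, and of Atf3, which was higher there, are shown to compare the elements next to their starts. Each is the window of 250 bases before to 50 after the annotated start, from RefSeq on GRCm38.p6, at chr12:85473640-85473939 (plus strand) for Fos, chr7:19309996-19310295 (minus strand) for Fosb and chr1:191183284-191183583 (minus strand) for Atf3. Capitals mark TGACG on either strand, the core of the site that CREB and ATF proteins bind, its longer form TGACGT, which overlaps it, and the TATA box TATAAA.
Fos: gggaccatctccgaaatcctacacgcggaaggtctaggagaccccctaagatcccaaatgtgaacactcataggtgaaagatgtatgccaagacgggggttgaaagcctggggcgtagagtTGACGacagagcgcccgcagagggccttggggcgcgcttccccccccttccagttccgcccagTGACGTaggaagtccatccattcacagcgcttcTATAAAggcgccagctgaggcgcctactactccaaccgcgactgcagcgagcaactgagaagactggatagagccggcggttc
Fosb: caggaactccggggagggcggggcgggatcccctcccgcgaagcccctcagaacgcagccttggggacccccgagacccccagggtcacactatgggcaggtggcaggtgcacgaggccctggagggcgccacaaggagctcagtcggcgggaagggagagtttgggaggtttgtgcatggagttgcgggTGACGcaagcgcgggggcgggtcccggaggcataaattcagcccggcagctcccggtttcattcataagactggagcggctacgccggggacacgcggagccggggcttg
Atf3: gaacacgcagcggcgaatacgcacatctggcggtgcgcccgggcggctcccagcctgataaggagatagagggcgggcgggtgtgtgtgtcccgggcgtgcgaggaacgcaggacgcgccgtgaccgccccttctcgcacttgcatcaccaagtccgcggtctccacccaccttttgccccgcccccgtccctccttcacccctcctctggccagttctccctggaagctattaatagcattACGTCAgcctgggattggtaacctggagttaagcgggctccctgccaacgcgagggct

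In Fos the letters TGACGT began 66 bases before the start and TATAAA began 33 bases before it, and another TGACG lay 129 bases before it. In Fosb a single TGACG began 60 bases before the start. In Atf3 the letters TGACGT lay on the opposite strand, ending 3 bases before the start. Promoters on chr18 were left out before the search. The letters TGACGT occurred in 2 of the 9 member promoters searched and in 7.51% of the 32851 searched promoters of the same length. TGACG occurred in 6 of 9 and in 20.8%. TATAAA occurred in 3 of 9 and in 13.6%. Besides Fos, these were Junb, at bases 1 to 6 from the start, and Nr4a2, on the opposite strand and 164 bases before the start. The AP-1 site TGACTCA and the full cyclic AMP response element TGACGTCA were in none of the 9 windows (5.20% and 1.79% of the searched promoters). Nor was the CArG box, the site of serum response factor (1.63%). Sites outside these short windows were not searched, and no window of Egr1 was among those searched. So this does not show that the members lack such sites. TGACG and TGACGT were added to the search after the sequences had been seen. A match is a string of letters in a window, and Atf3 and Fos, which differed in opposite directions in PTX against PBS, both held TGACGT.

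Atf3 read 2607 after PTX, 523 after LPS and 1633 after PBS. The PTX reading was the highest and the LPS reading the lowest, and the difference in PTX against PBS was 0.67. At least as large a difference was seen in 10.9% of measured genes. Over the alternative settings it lay between 0.57 and 0.68, so it was above 0 and under 2-fold in all 10. Those that change only the filter or the choice of probe sets could not move it, as Atf3 has a single probe set.

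The remaining members lay close together on the PTX and PBS arrays. Junb, a Jun family member that activates some promoters and opposes Jun at others, read 2122 after PTX and 1968 after PBS (0.11). Jund, which is expressed widely and with little induction, read 3614 after PTX and 3749 after PBS (-0.05). Nr4a1, the receptor also known as Nur77, read 900.3 after PTX and 969 after PBS (-0.10).

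Jun and Fosl2 were likewise near their PBS readings. Jun, the partner through which most Fos proteins bind DNA, read 946 after PTX and 958 after PBS by its brightest probe set (-0.02), and 842 after PTX and 605 after PBS by the other (0.47). Fosl2, a Fos family member that persists longer than Fos after induction, read 1158 after PTX and 1026 after PBS (0.17), and its dimmer probe set differed by 0.02. The 6 probe sets of Nr4a2 lay between -0.41 and 0.32, with 5 of them above 0.

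**Figure D2:**
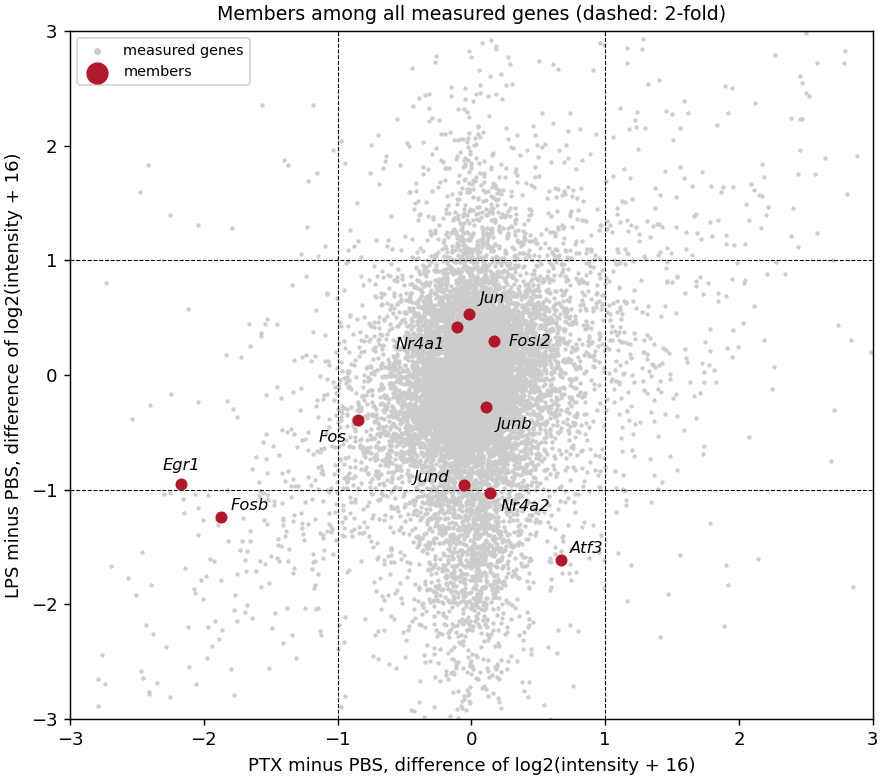
Difference of log2(intensity + 16) in PTX minus PBS (horizontal) and in LPS minus PBS (vertical) for all measured genes (grey) and the 10 members (red), with dashed lines at 2-fold. Both axes share the PBS array, so their relation is not a result, and 115 measured genes lie outside the range drawn. Egr1 and Fosb lie left of the 2-fold line for PTX, and Atf3 lies low on the LPS axis and right of 0 on the PTX axis.

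LPS against PBS shows what differed after the Toll-like receptor 4 ligand. By their brightest probe sets Atf3, Fosb and Nr4a2 were at least 2-fold lower in LPS-treated cells, Jund and Egr1 lay just short of 2-fold lower, and none was at least 2-fold higher. So 3 of 10 members were at least 2-fold lower, where 13% of all measured genes were, and 0 of 10 at least 2-fold higher, where 6.5% were. Of the 3, Fosb reached the measured level on the PBS array only. The members' median was -0.67, and that of all measured genes was -0.08. With the mean of probe sets these medians were -0.34 and -0.13. The number of members at least 2-fold lower was 1 with median centring, with a pseudocount of 64 and with the measured level at the 75th percentile, and 5 with scaling on the hybridization controls. The share of all measured genes was not counted under these settings. Their median moved too, to 0.27 with median centring and to -0.30 with scaling on the hybridization controls.

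Atf3 had the lowest difference in LPS against PBS among the members, with 523 after LPS and 1633 after PBS (-1.61). At least as large a difference was seen in 8.12% of measured genes and in 4.1% of the 1000 genes closest in mean level. It was at least 2-fold lower in LPS under all 10 alternative settings, with a range from -1.84 to -1.29. As Atf3 has a single probe set, settings that change only the filter or the choice of probe sets could not move this value.

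Jund read 1917 after LPS and 3749 after PBS (-0.96), and Egr1 read 592 after LPS and 1160.1 after PBS (-0.95). Jund was past 2-fold with quantile normalization (-1.21) and with scaling on the hybridization controls (-1.19), and Egr1 with scaling on those controls (-1.17). Fosb differed by -1.24 and was within 2-fold with median centring (-0.92), quantile normalization (-0.91) and a pseudocount of 64 (-0.89). Fos differed by -0.39, with a range over the settings from -0.76 to -0.07.

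Fosl2, Jun and Nr4a1 read higher after LPS than after PBS by their brightest probe sets, each by less than 2-fold. Fosl2 read 1267 after LPS and 1026 after PBS (0.30), and Nr4a1 read 1302 after LPS and 969 after PBS (0.42). Fosl2 and Nr4a1 stayed above 0 under the 10 settings, but the dimmer probe set of Fosl2 lay at -0.05, with 145 after LPS and 150.1 after PBS. Junb read 1617 after LPS and 1968 after PBS (-0.28), and with median centring its sign turned (0.04).

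**Figure D3:**
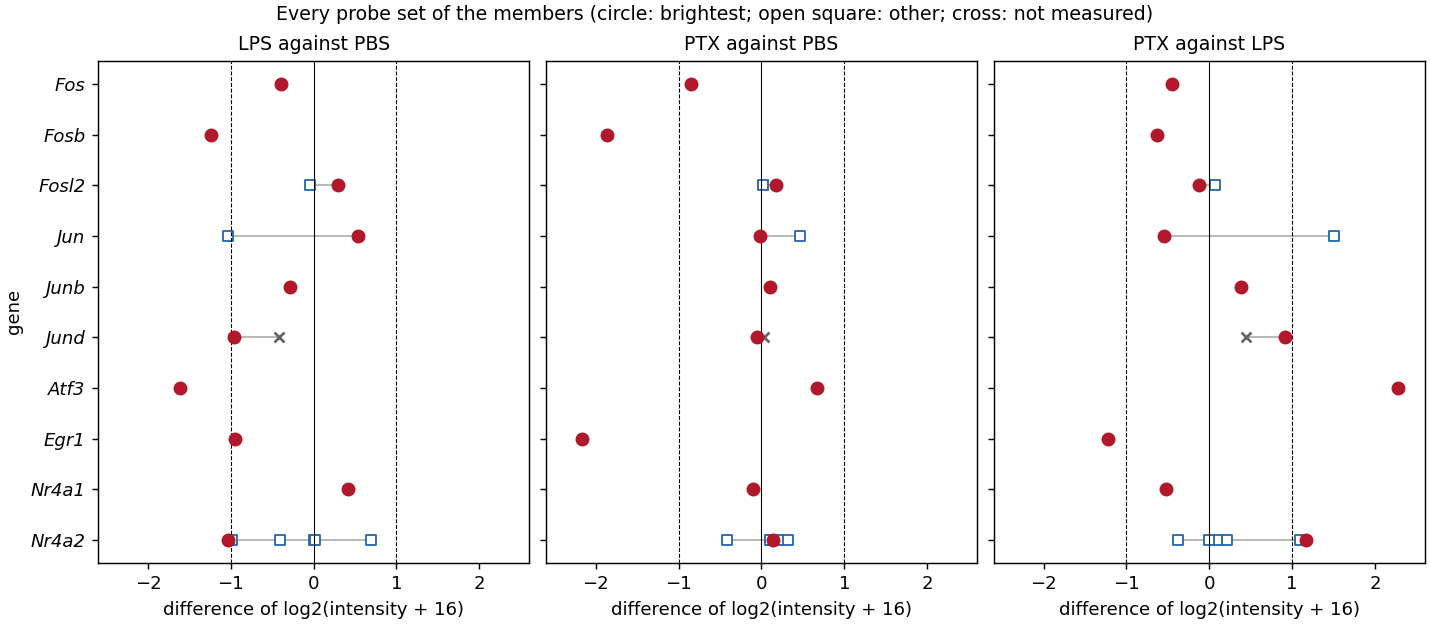
Difference of log2(intensity + 16) for every probe set of the members in the 3 comparisons, with the brightest probe set of each gene as a circle, its other probe sets as open squares, the probe set that was not measured as a cross, and dashed lines at 2-fold. The probe sets of Jun and of Nr4a2 spread from about 2-fold lower to above 0 in LPS against PBS and lie closer together in PTX against PBS.

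The probe sets of a single gene differed most in the comparisons with the LPS array. For Jun, the probe set with the higher mean read 1392 after LPS and 958 after PBS (0.53), and the other read 287 after LPS and 605 after PBS (-1.04), although the annotation gives the same transcript for both. The gap of 1.57 between them was matched or passed in 11.4% of the 5519 genes with at least 2 measured probe sets. The median gap over those genes was 0.46 in LPS against PBS and 0.15 in PTX against PBS. The direction of Jun after LPS thus depended on the probe set, and their mean gave -0.25.

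Nr4a2, known as Nurr1, was dim, and its 6 probe sets split evenly about 0 in LPS against PBS, with 3 below and 3 above. The brightest, whose name marks it as able to match several transcripts, read 82.2 after LPS and 185 after PBS (-1.03), and a similar one read 72.1 after LPS and 158 after PBS (-0.98). The probe set at 0.01 read 125 after LPS and 124 after PBS, that at 0.02 read 108 after LPS and 106.5 after PBS, and the highest, at 0.69, read 166 after LPS and 96.8 after PBS. Without such probe sets the difference of Nr4a2 was 0.01. For Jund, the dimmer probe set was the only member probe set not measured, at 33.0 after PTX, 20.1 after LPS and 32.2 after PBS.

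Counted by probe set, 17 of the 18 were measured. In PTX against PBS 2 of the 17 were at least 2-fold lower, where 2.19% of all measured probe sets were, and 0 were at least 2-fold higher, where 2.76% were. In LPS against PBS 4 of the 17 were at least 2-fold lower, where 16.3% were, and 0 at least 2-fold higher, where 6.23% were. In PTX against LPS 4 were at least 2-fold higher, where 17.3% were, and 1 at least 2-fold lower, where 6.22% were. The Fosb probe set, at least 2-fold lower in both comparisons with PBS, reached the measured level on the PBS array only. Probe sets of a gene are not independent of each other.

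PTX against LPS sets the stimuli side by side. Atf3 and Nr4a2 were at least 2-fold higher in PTX-treated than in LPS-treated cells, Egr1 was at least 2-fold lower, and the other 7 members were within 2-fold. So 2 of 10 members were at least 2-fold higher, where 13.7% of all measured genes were, and 1 of 10 at least 2-fold lower, where 6.24% were. The members' median was -0.29 and that of all measured genes 0.09.

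Atf3 had the largest difference among the members in this comparison, with 2607 after PTX and 523 after LPS (2.28). At least as large a difference was seen in 2.50% of measured genes and in 1.5% of the 1000 genes closest in mean level. Over the settings it lay between 1.94 and 2.51. Egr1 read 245 after PTX and 592 after LPS (-1.22), and scaling on the hybridization controls left it just within 2-fold (-0.99).

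Jund read 3614 after PTX and 1917 after LPS (0.91), past 2-fold with quantile normalization (1.05) and with scaling on the hybridization controls (1.14). Fosb (-0.63), Jun (-0.55), Nr4a1 (-0.52) and Fos (-0.46) were lower after PTX than after LPS, and Junb was higher (0.39). Jun was higher (1.50) by its other probe set. Nr4a2 was past 2-fold higher by 2 of its probe sets (1.17 and 1.09), while its other 4 lay between -0.37 and 0.22.

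**Figure D4:**
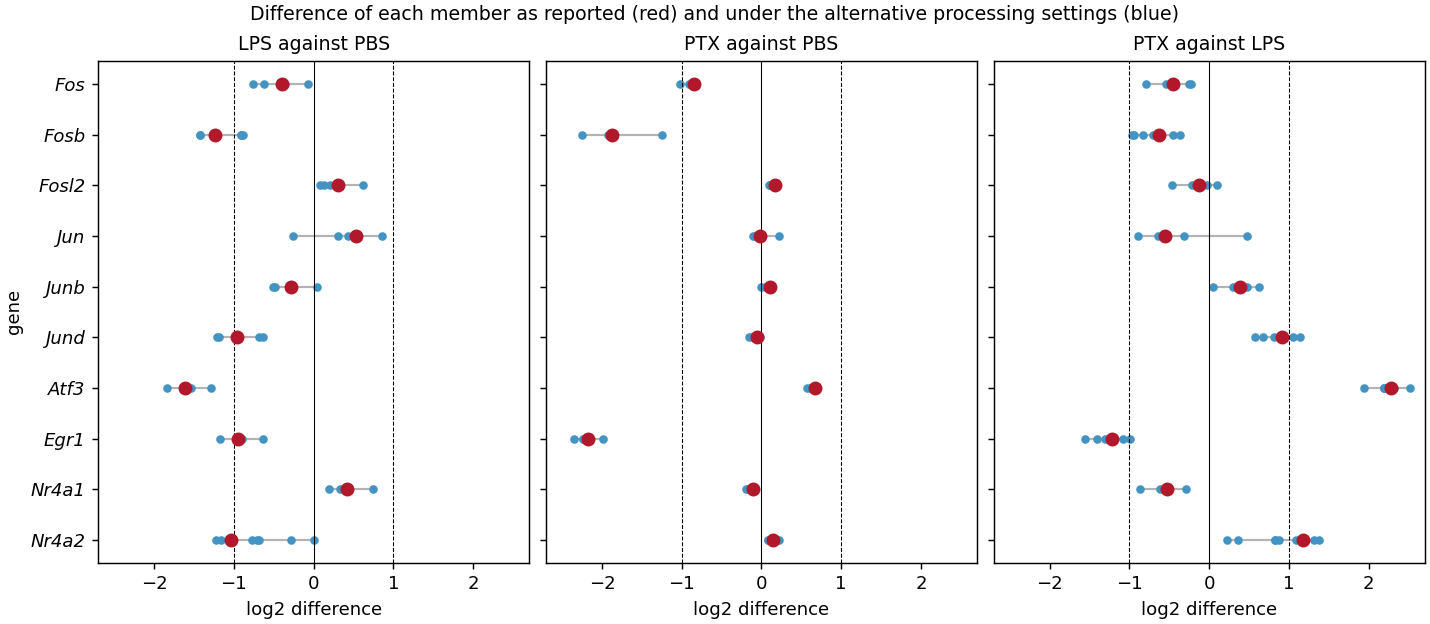
Log2 difference of each member in the 3 comparisons, as reported (red) and under the 10 alternative settings (blue), with dashed lines at 2-fold. The spread over settings is narrow in PTX against PBS, apart from Fosb, which ranges from -2.25 to -1.25, and wider in both comparisons that use the LPS array.

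Genes whose readings were most like those of a member were sought in the plane of the differences of LPS and of PTX from PBS, over the 3 arrays. Closest to Egr1 were Uhrf1 (72.9 after PTX, 192 after LPS and 408 after PBS, at a distance of 0.11), Phgdh (138 after PTX, 307 after LPS and 671 after PBS, 0.13) and H2-Ob (7.41 after PTX, 31.7 after LPS and 82.1 after PBS, 0.13). H2-Ob reached the measured level on the PBS array only, and Uhrf1 lay below it after PTX, so their distances depend on the pseudocount. Only 6 genes lay within 0.25 of Egr1, against 101 within 0.25 of Fos and 906 of Jun. Polr2h, Ezh2 and Nop56 were closest to Fos, and Hnrnpa1, Ypel5 and Cdk5 to Jun. With 3 arrays such likeness is a description of these values.

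Other immediate early genes differed in both directions. Of 25 listed genes 24 were measured. In PTX against PBS 1 was at least 2-fold higher, where 3.04% of all measured genes were, and 3 were lower, where 2.37% were. The other 20 were within 2-fold, and the median of the 24 was -0.15. Myc, the growth regulator, read 42.8 after PTX, 189 after LPS and 226 after PBS (-2.04 in PTX against PBS). Its PTX reading lay below the level for a measured gene, so that size depends on the pseudocount. Klf4, a Krüppel-like factor, read 539 after PTX, 233 after LPS and 1360.3 after PBS (-1.31). Dusp1, the phosphatase that switches off p38 and JNK, read 2243 after PTX, 7845 after LPS and 4764 after PBS (-1.08). Myc, Klf4 and Dusp1, like Egr1 and Fosb, were lower after PTX than after PBS, but Klf4 was lower still after LPS. Nr4a3, the third receptor of the Nr4a family, read 1404 after PTX, 637 after LPS and 629 after PBS (1.14), and its other measured probe set differed by -0.01.

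In LPS against PBS 4 of the 24 were at least 2-fold higher, where 6.5% of all measured genes were, and 7 lower, where 13% were. The other 13 were within 2-fold, and the median of the 24 was 0.09. Over 5 scalings 2 to 7 were higher and 6 to 7 lower, and the median lay between -0.13 and 0.42. Klf4 (-2.47), Klf10 (-1.84) and Plk2 (-1.76) were lowest, and Egr3 was highest (2.53), though its other measured probe set lay at -2.37. Egr2, named here as the closest relative of Egr1 after its values had been seen, read 1162 after PTX, 459 after LPS and 1452 after PBS. It was thus lower after LPS (-1.63, with its other measured probe set at -1.78) and near its PBS level after PTX (-0.32), whereas Egr1 read lowest after PTX.

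**Figure D5:**
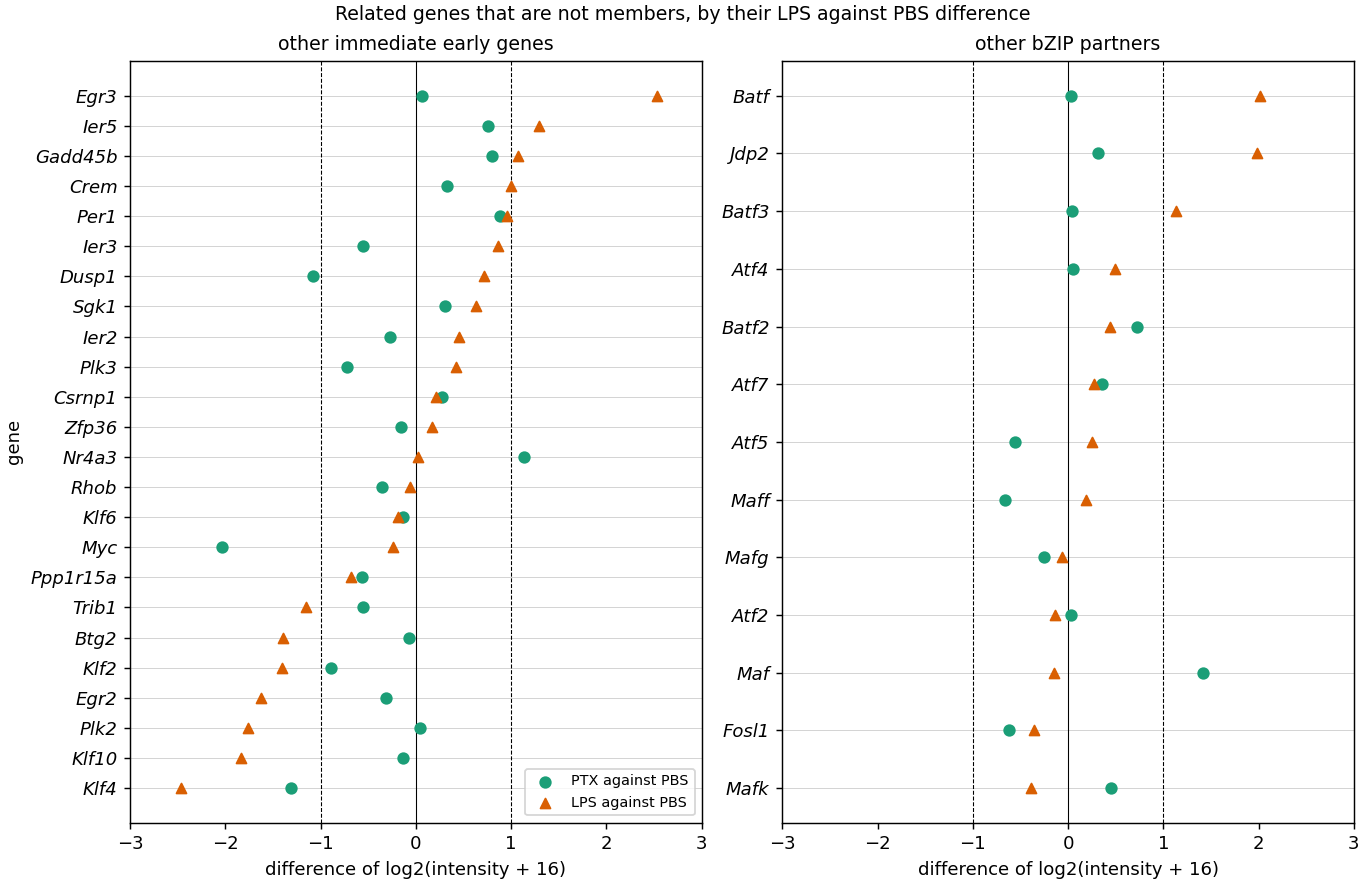
Difference of log2(intensity + 16) for measured genes of the lists of other immediate early genes (left) and of other bZIP partners (right), with PTX against PBS as circles, LPS against PBS as triangles and dashed lines at 2-fold. Batf, Jdp2 and Batf3 lie past 2-fold higher in LPS and near 0 in PTX, and Maf shows the opposite.

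Among 13 measured bZIP partners that are not members, 1 was at least 2-fold higher in PTX against PBS and 3 in LPS against PBS, and none was lower in either. Of all measured genes 3.04% were at least 2-fold higher and 2.37% lower in PTX, and 6.5% higher and 13% lower in LPS. The partner higher in PTX was Maf, a large Maf factor of macrophages, with 2064 after PTX, 686 after LPS and 762 after PBS (1.42), and its 4 other measured probe sets were at least 2-fold higher too. Those higher in LPS were Batf, which pairs with Jun proteins and with IRF partners, with 225 after PTX, 935 after LPS and 219 after PBS (2.02), Jdp2, a Jun-binding repressor, with 470 after PTX, 1526 after LPS and 375 after PBS (1.98), and Batf3, a factor of cross-presenting dendritic cells, with 375 after PTX, 819 after LPS and 364.5 after PBS (1.13). Median centring, quantile normalization, trimmed mean scaling and scaling on the hybridization controls left Batf and Jdp2 past 2-fold (lowest 1.80 and 1.76), whereas Batf3 ranged down to 0.91. Each of the 3 had no other measured probe set.

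Kinases and factors that act upstream were read on the same arrays. Of 20 measured genes of the MAP kinase and serum response factor pathway all 20 were within 2-fold in PTX against PBS (median -0.04), where 3.04% of all measured genes were at least 2-fold higher and 2.37% lower, and Srf, the factor itself, differed by -0.41. In LPS against PBS 19 were within 2-fold by their brightest probe sets. Map3k1, a kinase upstream of JNK, was lower (-1.54, with its other measured probe set at -0.51). Among the 19, dimmer measured probe sets reached 2-fold lower for Mapk9 (-1.56), Mapk14 (-1.31), Map2k2 (-1.63), Map3k7 (-1.69) and Rps6ka3 (-1.39). For Srf a dimmer one was 2-fold higher (1.08, against -0.59 by the brightest). By the brightest probe sets the list median was -0.46, and with scaling on the hybridization controls 6 genes were at least 2-fold lower. Of 5 measured corepressors and turnover factors of the members, all were within 2-fold in PTX, including Nab2, a corepressor of Egr1 (-0.07). Fbxw7, a ubiquitin ligase component that targets Jun, was lower in LPS by its brightest probe set (-1.18). It was within 2-fold at -0.85 with median centring and with quantile normalization, and its other measured probe set lay at -0.60. Itch, within 2-fold in LPS by its brightest probe set (-0.57), was at least 2-fold lower by 2 of its 3 other measured probe sets. Of all measured genes 13% were at least 2-fold lower in LPS against PBS.

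Of 12 measured genes known as AP-1 targets, 3 were at least 2-fold lower in PTX against PBS, where 2.37% of all measured genes were. None was higher, where 3.04% were (list median -0.47). In LPS against PBS 5 of the 12 were higher, where 6.5% of all measured genes were, and 1 lower, where 13% were (list median 0.50). Over 5 scalings 3 to 5 were lower in PTX (median -0.58 to -0.44), and 4 to 6 were higher in LPS (median 0.06 to 0.82). Those lower in PTX were Il6 (-1.57), Tnf (-1.28) and Hmox1, for heme oxygenase 1 (-1.08). In LPS Il6 (2.36), Ccl2 (2.22), Timp1 (1.92), Mt2 (1.50) and Tnf (1.05, down to 0.83 over the scalings) were higher, and Mmp13, for a collagenase, was lower (-2.15). These genes have other regulators, and their levels say nothing of AP-1 activity by themselves.

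Among heat shock genes 2 were, like Egr1 and Fosb, low on the PTX array. Hspa1a, for inducible heat shock protein 70, read 30.6 after PTX, 432 after LPS and 399 after PBS (-3.15 in PTX against PBS), and Hspa1b read 175 after PTX, 342 after LPS and 1032 after PBS (-2.46). The PTX reading of Hspa1a lay below the level for a measured gene, so the size of its difference depends on the pseudocount. The other 8 of 10 were within 2-fold in PTX (list median -0.34, between -0.44 and -0.33 over 5 scalings). Of all measured genes 2.37% were at least 2-fold lower in PTX against PBS. The list's summed intensity was 22239 after PTX, 32578 after LPS and 24805 after PBS. The part of the heat shock genes in the readings of the members was not tested.

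Markers of the labelled cell type and of others a marrow culture can hold were read on the same arrays. The dendritic cell genes H2-Ab1, H2-Aa and Cd74 read 5527 or more on all 3 arrays, and 9 of 10 listed genes were measured, with Cd209a below the level. Itgax read 1294 after PTX, 1691 after LPS and 2383 after PBS (-0.87 in PTX against PBS), and Flt3 read 253 after PTX, 181 after LPS and 62.1 after PBS (1.78). The list's summed intensity was 27860 after PTX, 37195 after LPS and 24270 after PBS. Of 8 measured macrophage and monocyte markers all 8 were above 0 in PTX against PBS (median 0.86). At least 2-fold higher were 2 of them, where 3.04% of all measured genes were. The summed intensity of these markers was 35951 after PTX, 33667 after LPS and 21248 after PBS. The neutrophil list summed to 6702 after PTX, 11895 after LPS and 10591 after PBS, with Mpo and Elane not measured. Most of that sum was S100a8 and S100a9, which both read lower after PTX than after PBS. Csf3r ran the other way, at 1329 after PTX, 204 after LPS and 303 after PBS (2.07 in PTX against PBS). In LPS against PBS S100a8 was higher, at 9306 after LPS and 6074 after PBS. S100a9 was lower, at 1924 after LPS and 3877 after PBS. Of the 6 measured neutrophil genes 2 lay above 0 and 4 below 0 in LPS against PBS (median -0.41), although the sum was higher after LPS. The mast cell and eosinophil list summed to 428 after PTX, 2251 after LPS and 737 after PBS, with Prg2 at 1274 after LPS. Of its 9 genes with a probe set 5 were not measured, and 3 of the 4 measured read higher after LPS than after PBS. Siglecf ran the other way, at 63.1 after PTX, 43.9 after LPS and 250 after PBS (-2.15 in LPS against PBS). Lymphoid markers summed to 276 after PTX, 230.0 after LPS and 282 after PBS. Stromal and erythroid markers summed to 346 after PTX, 683 after LPS and 342 after PBS, with Dcn at 52.5 after PTX, 373 after LPS and 40.8 after PBS (2.78 in LPS against PBS). Flt3 after PBS, Siglecf after PTX and LPS, and Dcn after PTX and PBS lay below the measured level. The sizes of their differences thus depend on the pseudocount. Of the genes with a probe set, 5 of 6 lymphoid markers and 4 of 6 stromal and erythroid markers were not measured. The lowest value of any probe set was 1, so no marker could read 0. In these bulk samples fewer cells of a type and less RNA per cell cannot be told apart, and the part of cell composition in the members' readings was not tested.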

How the data were processed

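The deposited table held 1 linear intensity per probe set and array for 45101 probe sets on 3 arrays (PTX, LPS, PBS), with a lowest value of 1. Biotin-labelled cRNA was made from 3 µg of RNA for Affymetrix arrays, per the labels; for the summarizing program, the background correction and the scaling, the sources used here give nothing. The intensities deposited by the authors were used without further normalization. Genes were named from the platform annotation, which can be old, and the 64 control probe sets were left out. The log2 values were computed from the deposited intensities with a pseudocount of 16, in Python 3.11.15 with pandas 2.3.3 and numpy 2.4.6, and the counting steps were tested on simulated data. With 1 array per group no test was run and genes at least 2-fold apart were counted; the number of arrays limits the precision.

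The members and lists were chosen with earlier results of these data known. Named genes are all members, up to 4 genes per list and comparison by size of difference (all where 5 or fewer passed 2-fold), and the 3 nearest in pattern to Fos, Jun and Egr1, leaving out predicted genes. Alternatives were 9 planned settings and 1 added after seeing the data, scaling on the hybridization controls. Promoters on chr18 were left out before the motif search. The promoters searched covered 9 of the 10 members, all but Egr1.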

Additional observations from a re-analysis of the deposited data

How the results depend on the processing

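Each of 10 alternative settings was applied to the 10 members in 3 comparisons. Of 294 such values for single members, 268 kept their direction and their side of 2-fold, 13 no longer reached 2-fold, 6 newly reached it, 6 under 2-fold changed sign and 1 past 2-fold did so: Nr4a2 in LPS against PBS, at 0.0092 without the probe sets whose names mark several possible transcripts. With the 75th percentile filter Fosb and Nr4a2 were not measured. For the 6 members with a single probe set, settings that change only the filter or the choice of probe sets could not move a value. Such values are among the 268.

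The number of members at least 2-fold lower in LPS against PBS was 3 as reported, 1 with a pseudocount of 64, with median centring and with the 75th percentile filter, 2 with quantile normalization, with the mean of probe sets and without the probe sets just named, and 5 with scaling on the hybridization controls. In PTX against PBS it was 2 as reported, 1 with that filter, which leaves out Fosb, and 3 with quantile normalization. In PTX against LPS the number at least 2-fold higher was 2 as reported and 1 with a pseudocount of 64, median centring, the 75th percentile filter, the mean of probe sets and the omission of those probe sets, and 3 with scaling on the hybridization controls, and the number at least 2-fold lower was 1 as reported and 0 with scaling on the hybridization controls. The members' median with the mean of probe sets was 0.034 in PTX against PBS, where it was -0.04 as reported, and 0.17 in PTX against LPS, where it was -0.29. In LPS against PBS the members' median was -0.67 as reported. It was -0.34 with the mean of probe sets, with the 75th percentile filter and without the probe sets that can match several transcripts. It was -0.35 with median centring and -0.90 with scaling on the hybridization controls. Shares of all measured genes past 2-fold were not counted under the alternative settings. Median centring moved the median of all measured genes in LPS against PBS to 0.27, quantile normalization to 0.11 and scaling on the hybridization controls to -0.30, from -0.08 as deposited. Relative to that median, over 5 scalings, Atf3 lay between -1.74 and -1.53 in LPS against PBS, and Egr1 between -2.32 and -2.17 in PTX against PBS.

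No paired analysis was possible because each group held 1 array. Without replicates the noise of a single array cannot be estimated, and 6 members rest on a single probe set.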
